A study of Mus musculus with 42 samples.

Results

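The 8 genes described here encode complement proteins that macrophages are known to make or carry: the 3 chains of C1q (C1qa, C1qb and C1qc), complement component C3 (C3), factor B (Cfb), properdin (Cfp), the receptor for C3a (C3ar1) and the C1 inhibitor (Serping1). They were chosen by name, as the rows of a table of raw counts per gene whose Ensembl identifier maps to one of these symbols. All 8 were found among the 37310 genes of the table. The cells were bone marrow-derived macrophages (BMDM), grown from mouse bone marrow in medium conditioned by L929 cells. The study bred mice with a floxed Irf5 gene to LysM-Cre mice, in which the Lyz2 promoter drives the recombinase in myeloid cells, and compared them with wild-type mice, all male and on a C57BL/6 background. Libraries labelled KO came from these Irf5-deficient mice and libraries labelled WT from the controls, and Irf5 is a transcription factor of the interferon regulatory factor family. Cells of each genotype were sampled as Control at 0 h and then, at 2 h and at 24 h, as Control, palmitate or LPS cells, which makes 14 groups of 3 libraries. Palmitate is a saturated fatty acid, given with fatty acid-free albumin, and LPS (lipopolysaccharide) is a component of the bacterial outer membrane. What the Control cells received is not given in the sources used here.

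Complement is a cascade of plasma and cell-surface proteins that marks microbes and dying cells for removal. C1q recognises bound antibody or altered surfaces and starts the classical pathway through the proteases C1r and C1s. All pathways meet at the cleavage of C3, whose fragment C3b binds covalently to surfaces and whose fragment C3a acts on the C3a receptor. In the alternative pathway, factor B supplies the protease of the C3 convertase and properdin stabilises it, while the C1 inhibitor blocks the proteases of the classical and lectin pathways. Macrophages are a known source of C1q, which most other complement-producing cells, such as hepatocytes, do not make.

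Total counts per library lay between 2848793 and 7743442, with a median of 5625399. Levels are given as CPM, a library's count scaled by its total and its TMM factor, and 3 counts in a library, the floor used here, correspond to 0.387 to 1.05 CPM. Nothing in the sources used here says whether the 3 libraries of a group came from separate animals, so p-values measure only the spread between these libraries, which may be technical. Irf5, the targeted gene, was not lower in the libraries labelled KO. At Control 0 h its level was 210, 230 and 222 CPM in WT libraries and 307, 279 and 328 CPM in libraries labelled KO, and the mean was higher in KO in all 7 conditions. A count over the whole gene does not show which exons were read, and Irf5 overlaps Tnpo3, so this value neither checks nor replaces the label. Summed macrophage markers, Adgre1 among them, lay between 8197 and 9305 CPM at 24 h of LPS and between 5206 and 6598 CPM in all other conditions. T or NK cell markers did not exceed 1.90 CPM. Marker lists of fibroblasts and of granulocyte precursors were higher in many libraries labelled KO, and their values stand beside the genotype results below.

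Per kilobase of exon, which allows a rough comparison of genes, the mean level over all 42 libraries was 732 CPM for C1qb, 374 for C1qc, 326 for C1qa, 208 for C3ar1, 128 for C3 and 75.3 for Cfp. Cfb and Serping1 were far lower, at 0.520 and 0.113 CPM per kilobase. The length used covers every annotated exon of a gene, 1931 bases for C1qc and 1088 for C1qb. Levels per kilobase, and ratios between genes, therefore depend on the annotation. Of the 8 genes, 7 passed the filter on low counts and Serping1 did not. Cfb passed it through the LPS 24 h libraries alone, so its difference between LPS and Control at 24 h is a description, and it is left out of the counts of genes called below. Calls below are those with an adjusted p under 0.05 by edgeR's quasi-likelihood test, with Benjamini-Hochberg adjustment over 11624 genes.

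The windows of 250 bases upstream of the start of C1qb, C3 and Cfp are shown. These genes stand for 3 sizes of change after 24 h of LPS: a small rise, a rise of over 10-fold, and a rise of a few fold. The sequences are from RefSeq (GRCm38.p6), which had windows for 5 of the 8 genes here. Capitals would mark a match on either strand to the NF-kB consensus, to GAAANNGAA (interferon response elements), to TTCNNNGAA (STAT sites) or to TATAAA (the TATA box), and none stands in these 3.
C1qb, chr4:136886201-136886450, minus strand: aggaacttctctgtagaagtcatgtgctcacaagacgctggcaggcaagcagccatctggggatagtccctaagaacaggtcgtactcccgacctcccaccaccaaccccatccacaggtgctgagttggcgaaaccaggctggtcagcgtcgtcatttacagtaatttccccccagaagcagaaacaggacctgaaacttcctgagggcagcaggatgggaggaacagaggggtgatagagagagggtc
C3, chr17:57228137-57228386, minus strand: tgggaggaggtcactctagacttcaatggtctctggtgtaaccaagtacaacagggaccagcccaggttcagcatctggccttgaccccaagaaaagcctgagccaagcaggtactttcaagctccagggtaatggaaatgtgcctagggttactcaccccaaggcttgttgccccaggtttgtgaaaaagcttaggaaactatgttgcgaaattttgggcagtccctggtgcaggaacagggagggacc
Cfp, chrX:20931556-20931805, minus strand: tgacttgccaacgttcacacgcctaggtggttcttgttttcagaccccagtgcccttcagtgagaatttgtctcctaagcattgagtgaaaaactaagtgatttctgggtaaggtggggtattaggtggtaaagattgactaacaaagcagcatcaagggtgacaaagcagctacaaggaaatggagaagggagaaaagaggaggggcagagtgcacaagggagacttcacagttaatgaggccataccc
The NF-kB consensus was present in 7.25% of 32851 RefSeq windows of the same length, and of the 5 windows only that of C1qc held it, in the letters GGGGCTCTCC from base -41 to base -32. That RefSeq start of C1qc lies inside the gene as GENCODE annotates it. The interferon letters were in 7.13% of all windows and the STAT letters in 7.02%, and neither was in any of the 5. The TATA letters, found in 12.4% of windows, were in C3ar1 only, from base -235 to base -230.

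The C1q genes lie side by side on the minus strand of mouse chromosome 4 (GRCm38, also called mm10), in the order C1qb (ENSMUSG00000036905, chr4:136880129-136886187), C1qc (ENSMUSG00000036896, chr4:136889804-136893065) and C1qa (ENSMUSG00000036887, chr4:136895917-136898803). The gaps between them are 3616 and 2851 bases, with 0 protein-coding genes in between, and no annotated gene overlaps any of the 3. Each had at least 874 counts in every library. All 3 were present at every time, and all 3 fell in Control culture between 0 and 24 h in both genotypes. After 24 h of LPS all 3 were higher than in Control at 24 h, C1qa by more than its neighbours. Against Control at 0 h, only the mean of C1qa was higher after 24 h of LPS.

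**Figure D1:**
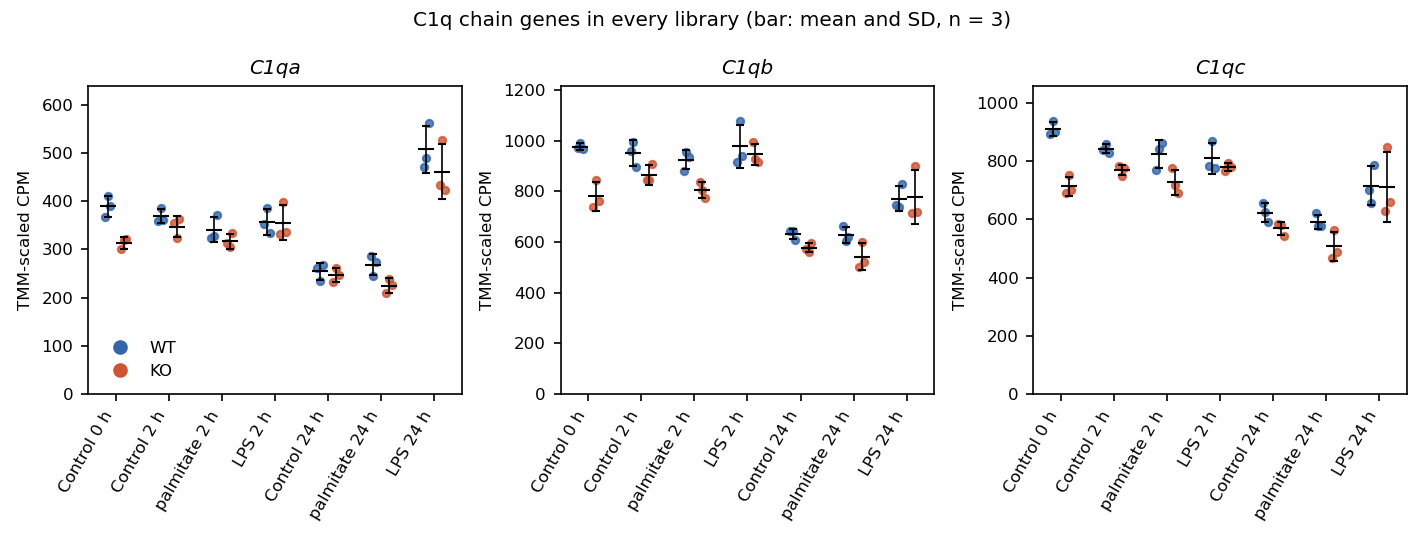
TMM-scaled CPM (y axis) of the 3 C1q chain genes in each library by condition (x axis), with WT in blue and KO in orange and bars for the mean and SD of 3 libraries. C1qa was highest in the LPS 24 h libraries, at 423 to 563 CPM, whereas C1qb and C1qc in those libraries lay below their WT Control 0 h levels.

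In WT Control libraries C1qa was 367, 411 and 390 CPM at 0 h and 262, 234 and 267 CPM at 24 h. The ranges do not overlap, and C1qa fell by 0.62 on the log2 scale (SE 0.08, adjusted p = 1.47e-07). C1qb fell by 0.63 on the log2 scale (SE 0.07, adjusted p = 5.74e-09), from 969, 992 and 968 CPM to 645, 643 and 608 CPM. C1qc fell by 0.55 (SE 0.07, adjusted p = 3.39e-07), from 894, 938 and 902 CPM to 656, 624 and 591 CPM. In KO libraries the 24 h levels were 232 to 260 CPM for C1qa, 560 to 597 for C1qb and 544 to 583 for C1qc. The log2 changes there were -0.34 (SE 0.08), -0.44 (SE 0.07) and -0.33 (SE 0.07), with adjusted p of 0.00293, 1.64e-05 and 0.00194. All genes tested were called at 12.1% in WT and 8.17% in KO in this comparison of times. No C1q gene was called between 0 and 2 h of Control in either genotype, where 14.3% and 12.1% of genes were. The decline in C1q chains was smaller in KO for each gene, but none of these differences was called (adjusted p = 0.245, 0.398 and 0.326 for C1qa, C1qb and C1qc).

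After 24 h of LPS, C1qa was 470, 490 and 563 CPM in WT and 433, 527 and 423 CPM in KO. Every one of these 6 libraries was above every Control and palmitate library of either genotype at any time. Against Control at 24 h, C1qa rose 2.00-fold in WT (log2 change 1.00, SE 0.08, adjusted p = 3.88e-15) and 1.87-fold in KO (log2 change 0.90, SE 0.08, adjusted p = 1.21e-13). C1qb was 746, 740 and 828 CPM in WT and 714, 901 and 718 CPM in KO after LPS. It rose 1.22-fold in WT (adjusted p = 0.000879) and 1.35-fold in KO (adjusted p = 1.87e-06), and the groups did not overlap in either genotype. C1qc was 702, 656 and 788 CPM in WT and 628, 848 and 659 CPM in KO. Its change was 1.15-fold in WT (adjusted p = 0.0274) and 1.25-fold in KO (adjusted p = 0.000378), and in WT the LPS and Control groups overlapped, since their lowest and highest library were both at 656 CPM. The WT call for C1qc was lost without WT Control 24 h library 2 or 3 or WT LPS 24 h library 3, with log2 changes of 0.20, 0.16 and 0.13. In KO, library 2 was the highest of the LPS 24 h group for all 3 chains.

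At 2 h no C1q gene was called against Control under LPS, where 23.1% of genes were in WT and 23.9% in KO. None was called under palmitate either, where few genes of any kind were. In WT and KO these were 0.275% and 0.112% at 2 h and 0.852% and 0.877% at 24 h. In palmitate at 24 h the levels lay between 209 and 286 CPM for C1qa, 501 and 665 CPM for C1qb, and 468 and 621 CPM for C1qc over both genotypes. Set directly against palmitate at 24 h, LPS gave higher C1qa (log2 difference 0.92 in WT and 1.04 in KO, SE 0.08 in both), C1qb (0.30 and 0.52, SE 0.07) and C1qc (0.27 and 0.49, SE 0.07), all called, where 39.5% of genes were in WT and 40.7% in KO. These comparisons share the LPS libraries with those against Control.

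Because the chains share a protein complex, their ratio within a library was also computed, per kilobase of exon, after the levels had been seen. The ratio needs no scaling between libraries. C1qa stood to C1qb as 0.424, 0.380 and 0.460 in WT Control at 24 h and as 0.659, 0.693 and 0.711 in WT LPS at 24 h. In KO it was 0.423, 0.486 and 0.434 in Control and 0.634, 0.612 and 0.617 in LPS. The LPS and Control ratios do not overlap in either genotype. The log2 ratio was 0.59 higher under LPS (6 libraries against 6, two-sided exact permutation test within genotype, p = 0.005, the smallest it can give, and 0.0225 adjusted over 9 tests). C1qa to C1qc gave a difference of 0.69 with the same p. C1qb to C1qc moved by 0.10 at 24 h (exact permutation p = 0.03, adjusted 0.0675), from 1.71 to 1.95 in Control to 1.86 to 2.02 in LPS. At 2 h of LPS the C1qb to C1qc ratio was 0.10 higher on the log2 scale (exact permutation p = 0.01, adjusted 0.03), with C1qa to C1qb and C1qa to C1qc not past the threshold (adjusted 0.193 and 0.805). Palmitate at 24 h changed none of the 3 ratios past the threshold, with adjusted exact permutation p of 0.771, 0.193 and 0.09.

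**Figure D2:**
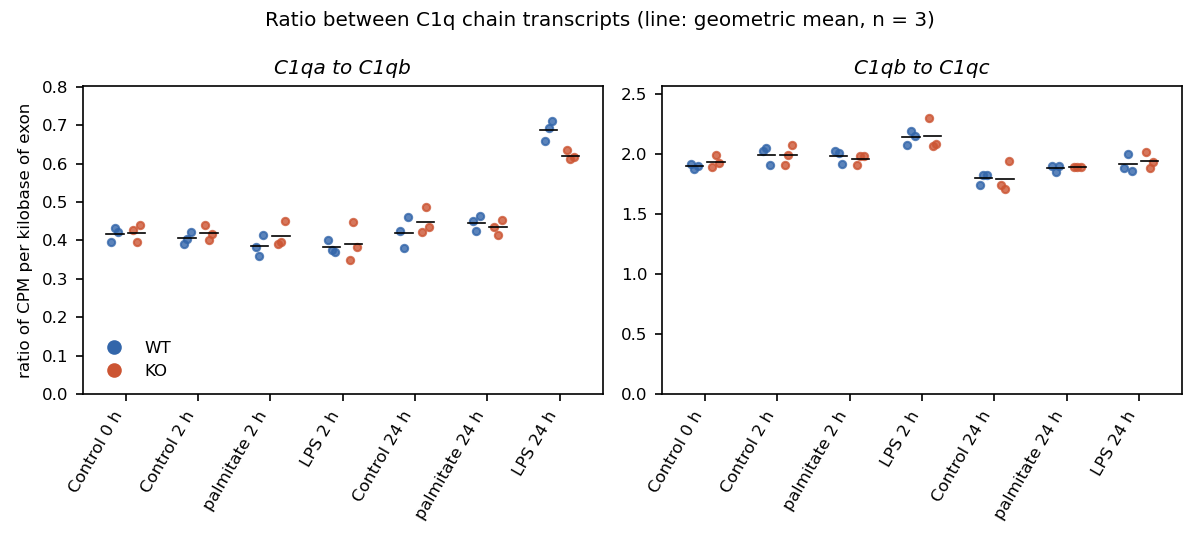
Ratio of CPM per kilobase of exon (y axis) for C1qa to C1qb and for C1qb to C1qc in each library by condition (x axis), with WT in blue, KO in orange and a line at the geometric mean of 3 libraries. In LPS at 24 h the C1qa to C1qb ratio was 0.612 to 0.711, against 0.380 to 0.486 in Control at 24 h.

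C3 (ENSMUSG00000024164, chr17:57203970-57228136, minus strand) had the widest range of CPM of the 8 genes. In Control at 24 h it was 230, 216 and 205 CPM in WT and 197, 204 and 219 CPM in KO. LPS for 24 h took it to 2938, 3420 and 3055 CPM in WT and to 3120, 3097 and 3075 CPM in KO. The rise was 14.5-fold in WT (log2 change 3.86, SE 0.10, adjusted p = 6.33e-34) and 14.9-fold in KO (log2 change 3.90, SE 0.10, adjusted p = 4.24e-34). Per kilobase of exon, C3 then stood at 610 CPM in WT and 602 CPM in KO, above C1qa at 488 and 443 and below C1qb at 709 and 715. The only other gene annotated within C3 is a microRNA that is no row of the table.

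The response of C3 had begun at 2 h of LPS, where it was the only one of the 6 genes counted to be called in either genotype. Its level was 354, 334 and 316 CPM in WT against 260, 259 and 224 CPM in Control, and 384, 379 and 381 CPM in KO against 231, 193 and 211 CPM. The log2 change was 0.43 in WT (SE 0.10, adjusted p = 0.000449) and 0.85 in KO (SE 0.10, adjusted p = 4.08e-10), in comparisons that called 23.1% and 23.9% of all genes. The difference between these genotype responses was 0.42 (SE 0.14, unadjusted p = 0.00363) and was not called over all genes (adjusted p = 0.376). The groups of LPS libraries do not overlap between genotypes at 2 h, but C3 was not called between them (log2 difference 0.19, SE 0.10, adjusted p = 0.433).

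C3 was also the only one of the 8 genes called under palmitate. At 24 h it was 314, 260 and 310 CPM in WT and 265, 265 and 325 CPM in KO, all above the Control libraries of the same time. The rise was 1.36-fold in WT (adjusted p = 0.00843) and 1.38-fold in KO (adjusted p = 0.00506), where 0.852% and 0.877% of genes were called. The WT call was lost without WT palmitate library 1 or 3 or WT Control library 3, and the KO call without KO palmitate library 3, with log2 changes from 0.35 to 0.41. At 2 h of palmitate C3 lay at 177, 192 and 232 CPM in WT and 144, 173 and 195 CPM in KO. The log2 differences from Control were -0.31 in both genotypes (SE 0.10) and were not called (adjusted p = 0.293 and 0.708), with 0.275% and 0.112% of genes called. The palmitate effect on C3 differed between 24 and 2 h by 0.75 on the log2 scale in WT (SE 0.14, adjusted p = 0.00221) and by 0.77 in KO (SE 0.14, adjusted p = 0.00252), where 0.241% and 0.172% of genes were called.

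Cfb (ENSMUSG00000090231, chr17:34856374-34862518, minus strand) was at or near 0 except after 24 h of LPS. The 36 other libraries held at most 2 counts each. After LPS for 24 h it had 38, 45 and 49 counts in WT and 76, 75 and 85 in KO, or 6.50 to 7.50 CPM and 11.3 to 14.005 CPM. All 6 Control libraries at 24 h had 0 counts. With the floor of 3 counts per library in Control, the level was at least 12.0-fold higher in WT and at least 22.0-fold higher in KO. The KO and WT groups do not overlap after LPS, but the difference was not called (log2 0.81, SE 0.39, unadjusted p = 0.0439, adjusted p = 0.535). Groups did not overlap for 13.4% of all genes in that comparison. Cfb shares exons with a read-through transcript on the same strand, Gm20547, which had 0 counts in every library. How reads in shared exons were assigned is not given in the sources used here. The 0 counts therefore do not show that Cfb lost no reads, and its level is uncertain.

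Cfp (ENSMUSG00000001128, chrX:20925454-20931555, minus strand) rose late under LPS with no change called at 2 h. In Control at 24 h its level was 104, 96.5 and 91.2 CPM in WT and 96.6, 106 and 86.1 CPM in KO. After LPS for 24 h it was 284, 312 and 295 CPM in WT and 261, 290 and 240 CPM in KO. The rise was 3.07-fold in WT (log2 change 1.62, SE 0.11, adjusted p = 5.32e-18) and 2.74-fold in KO (log2 change 1.46, SE 0.11, adjusted p = 2.31e-16). The groups lie far apart in both genotypes. At 2 h of LPS the WT levels of 102 to 114 CPM overlapped those of Control, at 94.2 to 105 CPM. Under palmitate at 24 h, Cfp was 96.2 to 133 CPM in WT and 103 to 124 CPM in KO, and neither difference from Control was called (adjusted p = 0.309 and 0.672).

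**Figure D3:**
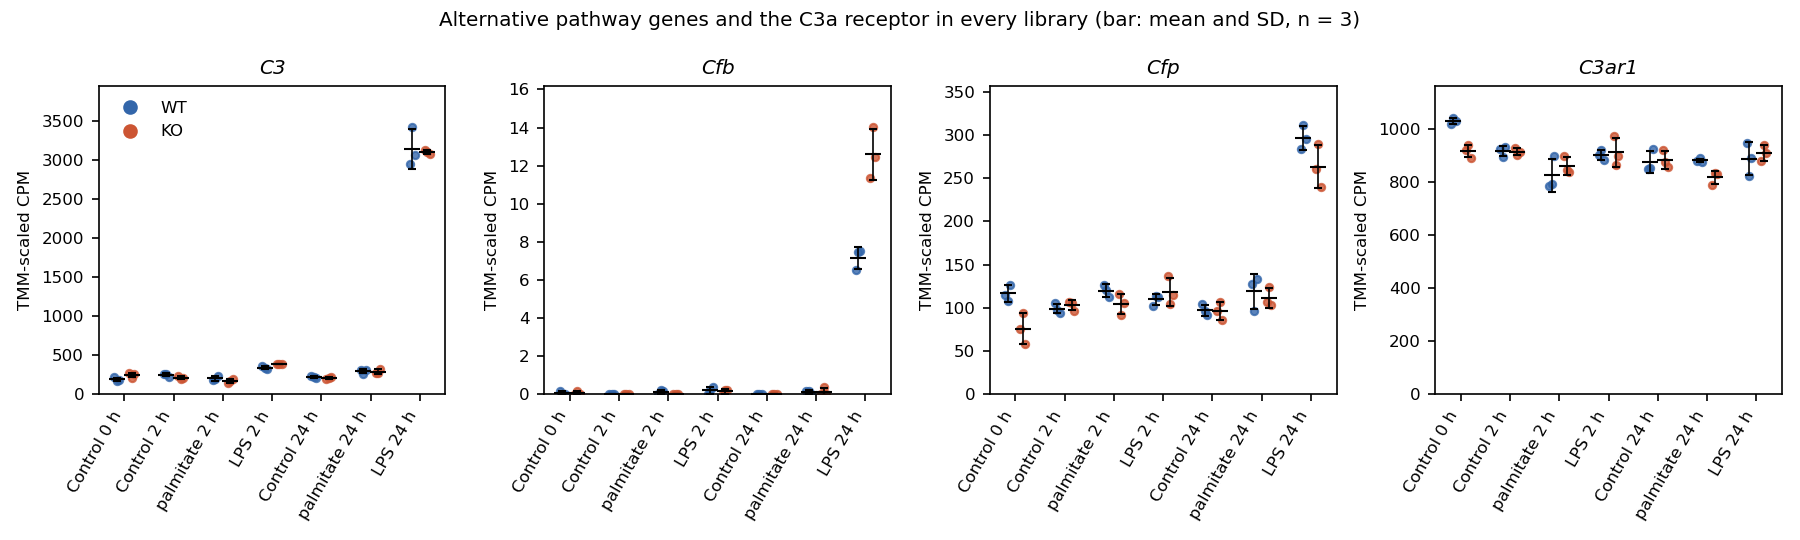
TMM-scaled CPM (y axis, a separate scale for each gene) of C3, Cfb, Cfp and C3ar1 in each library by condition (x axis), with WT in blue and KO in orange and bars for the mean and SD of 3 libraries. C3, Cfb and Cfp stood out in LPS at 24 h, whereas C3ar1 stayed between 784 and 1043 CPM in all 42 libraries.

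C3ar1 (ENSMUSG00000040552, chr6:122847138-122856161, minus strand), the receptor for C3a, moved least. Its group means differed by at most 1.26-fold. After LPS for 24 h it was 948, 824 and 889 CPM in WT and 880, 941 and 911 CPM in KO, overlapping Control at 850 to 925 and 855 to 921 CPM. The log2 change from Control was 0.02 in WT and 0.04 in KO, and over all 8 treatment comparisons the 95% intervals stayed between -0.26 and 0.15. WT Control libraries declined from 1021, 1043 and 1031 CPM at 0 h to 850, 854 and 925 CPM at 24 h (log2 change -0.23, SE 0.05, adjusted p = 0.00178). WT Control at 2 h was also lower than at 0 h (log2 change -0.17, SE 0.05, adjusted p = 0.0251), a call lost on leaving out any of 5 of the 6 libraries, all but WT Control 0 h library 1. LPS exceeded palmitate for this gene at 24 h in KO by 0.15 (SE 0.05, adjusted p = 0.0189), a call lost without KO palmitate library 1 or KO LPS library 2 (log2 differences 0.12 and 0.13).

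Serping1 (ENSMUSG00000023224, chr2:84765387-84775444, minus strand) was barely detected, with counts over the floor in 6 of 42 libraries. The highest library, WT palmitate 24 h library 2, held 10 counts (1.85 CPM), 19 of 42 libraries held 0 counts and 36 were at or under the floor. No LPS library exceeded 3 counts. At this depth, a level under the floor of 0.387 to 1.05 CPM could not be told from 0.

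Across the 6 genes counted, LPS for 24 h thus called 5 in each genotype, all higher, where 39.5% of all genes were called in WT and 40.9% in KO, with 19.6% and 19.9% called higher. The median log2 change of the 6 was 0.64 in WT and 0.66 in KO, against -0.01 for all genes tested in both. The LPS effect on C1qa, C3 and Cfp was larger at 24 than at 2 h in both genotypes, in comparisons that called 32.6% of genes in WT and 33.4% in KO. Set against palmitate, LPS gave higher C3 at both times and higher Cfp at 24 h, in both genotypes. These differences were called, in comparisons that called 22.5% to 40.7% of all genes. For none of the 6 was a difference between genotypes in the response to LPS or palmitate called at 2 or 24 h, although without the filter on low counts C3 was called for LPS at 2 h. These 4 tests together called 1 gene of the whole table (edgeR), 0.0086% of genes for LPS at 24 h and 0% for each of the others, and of the 6 genes only C3 at 2 h of LPS had an unadjusted p under 0.05.

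Genotype made a called difference at Control 0 h only. There, 6 of 6 genes counted were called, 5 lower and 1 higher in KO, against 12.5% of all genes (6.06% lower and 6.4% higher). C1qa was 300, 319 and 320 CPM in KO against 367, 411 and 390 CPM in WT, a fold of 0.804 (log2 change -0.31, SE 0.08, adjusted p = 0.00555). C1qb, at 737, 845 and 761 CPM, was 0.800 of WT (adjusted p = 0.00142), and C1qc, at 689, 752 and 701 CPM, was 0.784 of WT (adjusted p = 0.000801). Cfp was 75.6, 93.7 and 58.3 CPM in KO against 115, 108 and 127 CPM in WT, a fold of 0.651 (log2 change -0.62, SE 0.11, adjusted p = 0.000151). In all 4 genes every KO library was below every WT library, as it was for 28% of all genes in either direction. C3 went the other way, with 266, 209 and 255 CPM in KO and 213, 170 and 182 CPM in WT (log2 change 0.37, SE 0.10, adjusted p = 0.00769). The C3 groups overlap, and its call was lost without KO Control 0 h library 1 or WT Control 0 h library 2 (log2 changes 0.31 and 0.30). C3ar1 was 922, 939 and 891 CPM in KO against 1021, 1043 and 1031 CPM in WT (log2 change -0.17, SE 0.05, adjusted p = 0.0312), and lost its call whichever of the 6 libraries was left out.

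Other transcripts moved with genotype in the same libraries. Summed fibroblast markers were 43.1 to 70.7 CPM in KO Control 0 h libraries and 0.905 to 1.42 CPM in WT, with Col1a1 at 21.4 to 40.1 CPM in KO and at most 0.631 CPM in WT. The fibroblast genes Dcn and Lum stayed at or under 0.171 CPM in both, and 3 genes of the list had at most 10 counts in every library. Summed granulocyte precursor markers were 73.0 to 81.5 CPM in KO and 47.2 to 54.4 CPM in WT. In that list Ltf, Ngp, S100a8 and S100a9 were higher in KO without overlap, with Ltf at 21.0 to 26.4 against 12.6 to 15.0 CPM. Mpo overlapped, at 1.44 to 3.77 CPM in KO and 1.74 to 4.34 CPM in WT, as did Camp. Elane and Prtn3 stayed at or under 0.316 CPM in both, and Ly6g was at 0. Summed macrophage markers overlapped at 5359 to 5890 CPM in KO and 5669 to 5883 CPM in WT. The part of these transcripts in the difference was not tested. Fewer cells of a type and less RNA per cell cannot be told apart in bulk libraries.

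At the 6 later conditions no member was called between genotypes, where between 0.0688% and 0.49% of all genes were (0.49% at Control 2 h, 0.12% at Control 24 h, 0.146% at palmitate 2 h, 0.0688% at palmitate 24 h, 0.465% at LPS 2 h and 0.146% at LPS 24 h). These tests do not show equal levels. The log2 differences of C1qa were between -0.26 and -0.0034 in these 6 conditions, those of C1qb between -0.21 and 0.01, and those of C1qc between -0.22 and -0.01. Their 95% intervals reached as low as -0.42, -0.36 and -0.37, so a difference of the size seen at 0 h lies within the interval of some conditions. Every KO library was below every WT library for C1qb at Control 24 h and palmitate 2 h, and for C1qc at Control 2 h and 24 h. At palmitate 24 h all 3 chains were lower in every KO library than in every WT library, with unadjusted p of 0.00278, 0.00435 and 0.00454 and adjusted p of 0.36, 0.4 and 0.4. Groups did not overlap there for 12.5% of all genes. In the same libraries summed granulocyte precursor markers were 106 to 162 CPM in KO and 61.2 to 83.7 CPM in WT, while fibroblast markers overlapped, at 1.16 to 8.04 and 0.865 to 12.2 CPM. Their part in these differences was not tested.

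**Figure D4:**
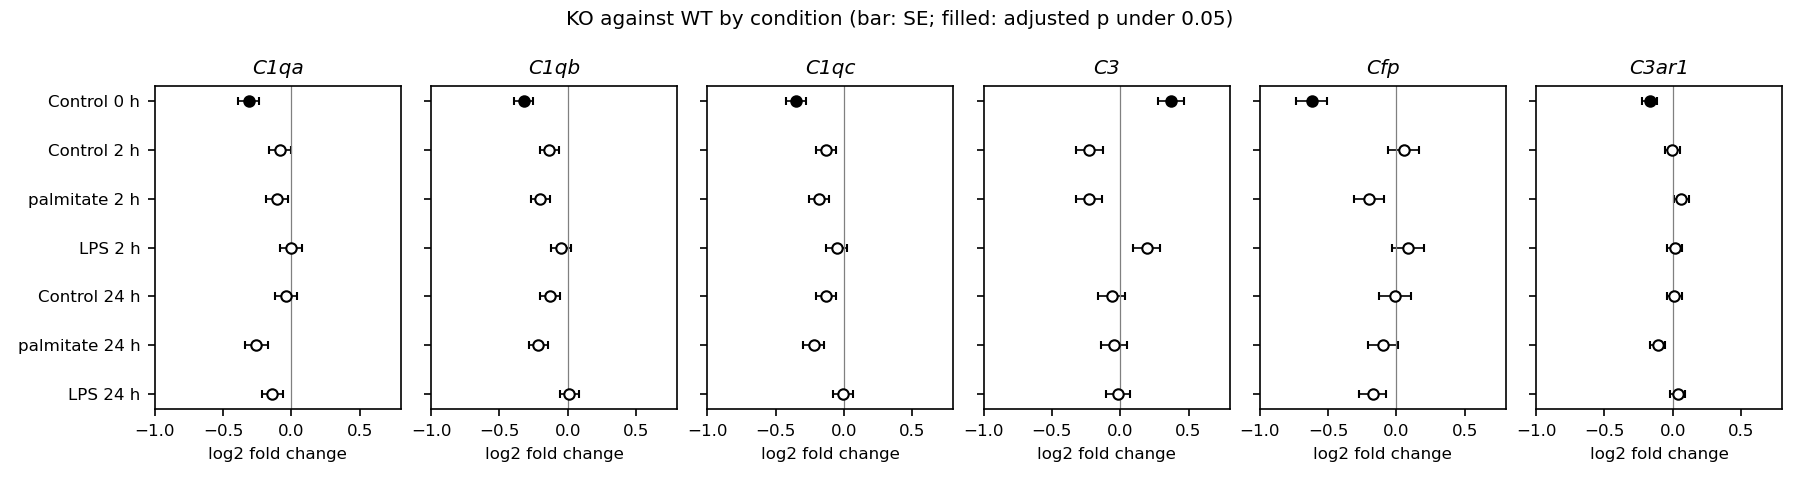
Log2 fold change of KO against WT (x axis) in each condition (y axis) for the 6 genes counted, with bars for the SE and filled points where the adjusted p is under 0.05. Filled points appear at Control 0 h only, where C3 was higher in KO by 0.37 and Cfp lower by 0.62.

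The change of genotype difference over Control time was itself called for Cfp and C3. For Cfp, the difference between KO and WT was higher at 2 h than at 0 h by 0.67 (SE 0.16, adjusted p = 0.00792) and at 24 h than at 0 h by 0.61 (SE 0.16, adjusted p = 0.033). Without KO Control 0 h library 3, the lowest Cfp library, the values were 0.51 and 0.43 and neither was called. The 24 h call was also lost without any of 7 other libraries. C3 moved the other way at 2 h, by -0.60 (SE 0.14, adjusted p = 0.00606), and at 24 h by -0.43 (SE 0.14, adjusted p = 0.0948). In WT Control C3 rose from 0 to 2 h (log2 change 0.39, SE 0.10, adjusted p = 0.0027), whereas in KO the change was -0.20 (SE 0.10, adjusted p = 0.196). Cfp rose over the same time in KO (log2 change 0.43, SE 0.12, adjusted p = 0.0071), a call lost without that same KO library 3 (0.28). All genes were called at 4.77% for the 2 h contrast and 1.83% for the 24 h contrast, and these values share the Control 0 h libraries with the comparison of genotypes at 0 h.

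The other genes of the pathway were a list of 43 initiators, terminal components, receptors and regulators, of which 42 had a row and 16 passed the filter. C1s1, the protease C1s of the C1 complex, passed it through the LPS 24 h libraries alone, like Cfb, so it is given as a description and left out of the counts. It had 25, 70 and 29 counts in WT and 18, 24 and 36 in KO after 24 h of LPS (2.68 to 11.6 CPM), and at most 11 counts in any other library. Of the other 15, LPS for 24 h called 9 in each genotype, 4 higher and 5 lower, where 39.5% of all genes were called in WT and 40.9% in KO. Their median log2 change was -0.18 in WT and -0.15 in KO. C1ra, the protease C1r, rose by 1.47 in both genotypes (SE 0.20 in WT and 0.21 in KO). C1ra and C1s1 have close paralogs, so their counts are uncertain. Cd55, decay-accelerating factor, which breaks up C3 convertases on the cell surface, went from 22.2, 21.6 and 17.8 CPM to 155, 97.6 and 131 CPM in WT (log2 change 2.66, SE 0.16, adjusted p = 7.72e-20) and rose by 2.83 in KO (SE 0.16). It too has a close paralog, Cd55b, and an antisense gene. Itgam, the alpha chain of complement receptor 3, rose by 0.50 in WT and 0.37 in KO (SE 0.05). Itgb2, also in the list as a receptor gene, rose by 0.35 in WT and 0.24 in KO.

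The genes named here that fell encode receptors. Itgax, the alpha chain of complement receptor 4, fell by 2.23 in WT (SE 0.22) and by 2.82 in KO (SE 0.20). Vsig4, a macrophage receptor for C3b fragments, fell by 2.79 in WT (SE 0.47) and by 3.08 in KO (SE 0.52), from at most 5.71 CPM in Control. C5ar2, the second receptor for C5a, fell by 1.13 in WT (SE 0.22) and by 0.75 in KO (SE 0.21). Cd93, once described as a C1q receptor, fell by 0.76 in WT and by 0.85 in KO (SE 0.06 in both).

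At 2 h of LPS, 4 of these 15 were called in WT (3 higher, 1 lower) and 2 in KO (both higher), against 23.1% and 23.9% of all genes. C5ar1, the receptor for C5a, rose by 0.89 in WT (SE 0.07, adjusted p = 3e-16) and by 1.17 in KO (SE 0.07, adjusted p = 1.02e-20), and Cd55 by 0.85 and 0.94 (SE 0.16). In WT, Itgax rose by 0.57 (SE 0.18, adjusted p = 0.0171) and C5ar2 fell by 0.64 (SE 0.21, adjusted p = 0.024), calls lost in 3 and 4 of the 6 fits that left out a library. C5ar1 was not called at 24 h of LPS, where it lay at 158 to 173 CPM in WT against 167 to 184 CPM in Control. Palmitate called none of the 15 at either time in either genotype, where at most 0.877% of all genes were called.

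Between genotypes, 3 of the 15 were lower in KO at Control 0 h, where 12.5% of all genes were called and 6.06% were lower: Fcna by -0.89 (SE 0.28, adjusted p = 0.0273), Cd93 by -0.26 (SE 0.06, adjusted p = 0.00172) and C5ar1 by -0.19 (SE 0.07, adjusted p = 0.04998). Leaving out 1 library lost the calls of Fcna and C5ar1 in 5 of 6 fits each and that of Cd93 in 1, without KO Control 0 h library 1, and C5ar1 was not called under any other setting tried. Fcna encodes ficolin A, a recognition molecule of the lectin pathway. Itgax was higher in KO at Control 2 h, Control 24 h, palmitate 2 h and LPS 2 h, by 1.01, 0.93, 0.82 and 0.75 (SE 0.17 in each). At Control 2 h its level was 64.6, 64.8 and 56.5 CPM in KO against 28.1, 27.5 and 36.2 CPM in WT. That call held whichever library was left out, whereas 1, 4 and 5 of 6 such fits lost the calls at Control 24 h (without WT Control 24 h library 2), palmitate 2 h and LPS 2 h. Itgam was higher in KO at LPS 2 h by 0.23 (SE 0.05, adjusted p = 0.029), a call lost whichever of the 6 libraries was left out. No gene of the list was called at palmitate 24 h or LPS 24 h.

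Markers of other cells also differed in these libraries. Summed granulocyte precursor markers were 65.0 to 125 CPM in KO and 19.3 to 32.9 CPM in WT at Control 2 h, 128 to 198 and 51.4 to 61.2 CPM at Control 24 h, 85.2 to 147 and 43.1 to 55.7 CPM at palmitate 2 h, and 118 to 204 and 45.4 to 66.1 CPM at LPS 2 h, with no overlap in any of the 4. Of the 9 genes in that list, 2 had at most 10 counts in every library. Itgax also marks dendritic cells, and summed dendritic cell markers were 10.8 to 12.4 CPM in KO and 3.65 to 6.17 CPM in WT at Control 24 h, without overlap. At Control 2 h, palmitate 2 h and LPS 2 h they overlapped, at 1.79 to 8.91 CPM over the 3 conditions, and 2 of the 6 genes had at most 10 counts in every library. Fibroblast markers were 73.3 to 119 CPM in KO and 2.52 to 60.1 CPM in WT at Control 2 h, and 3.04 to 159 and 1.30 to 2.15 CPM at LPS 2 h. They overlapped at Control 24 h, at 41.8 to 137 CPM in KO and 2.81 to 46.5 CPM in WT. At palmitate 2 h they also overlapped, at 1.87 to 314 CPM in KO and 0.380 to 40.9 CPM in WT. The part of these transcripts in the Itgax and Itgam differences was not tested.

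The order of the group means, with their neighbours, was resolved only in part. For C1qa, the 2 LPS 24 h groups came first, at 508 and 461 CPM, and their ranges overlap each other but not the next group, WT Control 0 h at 389 CPM. The last 4 groups, from 268 down to 225 CPM, were Control and palmitate at 24 h. Of the 13 steps between neighbouring groups, ranges were separate at 2 for C1qa, 3 for C1qb, 1 for C1qc, 4 for C3, 1 for Cfp and 1 for C3ar1. C1qb was highest in WT LPS 2 h (978 CPM) and C1qc in WT Control 0 h (911 CPM), and both were lowest in KO palmitate 24 h (542 and 507 CPM).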

How the data were processed

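RNA-seq counts were analysed for 8 complement genes in 42 BMDM libraries. Libraries were made with a stranded, ribodepleted total RNA kit and sequenced in paired ends. The authors deposited raw counts per gene, without normalisation. Per the labels, reads were trimmed with fastp 0.19.11 and aligned with STAR 2.7.3a, and mm10 and mm9 are named as builds. The study states mm10. The annotation release and whether counting used the strand are not given in the sources used here, so genes that overlap on either strand and close paralogs are uncertain. Table columns name a group without a replicate number, and library numbers 1 to 3 follow column order. A symbol was found for 32620 of the 37310 identifiers, with gene positions and exon lengths as GENCODE gives them for GRCm38.

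Counts were fitted in R 4.3.3 with edgeR 4.0.16. The 11624 genes kept by filterByExpr, with 99.9% of all counts, were scaled by TMM and fitted with 1 mean per group over all 42 libraries. The quasi-likelihood F test was run for 33 comparisons, with Benjamini-Hochberg adjustment over the genes tested. The SE is the size of the log2 fold change divided by the square root of F. A fold against a group whose libraries were all at or under 3 counts was set against that floor and is a lower bound for counting error only. A chi-square test of the counts of each of the 42 replicate pairs found 0 that agreed within sampling noise. The fit was tested on simulated data.

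The members and lists were chosen with earlier results of these data known. All 8 members were looked at in every comparison, though not every result is printed. For LPS against palmitate, log2 differences are given for the C1q genes and C3ar1 at 24 h only. Genes of the wider list were named where called between genotypes or between a treatment and Control, at most 4 per direction and comparison, by size of change. Genes with the most similar profile were the 3 with the highest Pearson correlation over group means, Cfb and Serping1 left out. Cfb and C1s1 reached the filter's count minimum only in LPS 24 h libraries and enter no count of calls in the report. Alternatives were RLE size factors, no filter, a fit of the compared libraries alone, DESeq2 1.42.0, and leaving out each library. The ratios of C1q chains and their permutation test were chosen after seeing the levels. A looser NF-kB pattern was searched first and was replaced by the consensus after its matches had been seen. Promoter sequences for 3 of the 8 genes, and protein sequences, were not used here. A gene of the wider list enters its counts and is not reported here by name.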

Additional observations from a re-analysis of the deposited data

Results flagged for a closer look

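Several complement genes responded differently at 24 h than at 2 h of treatment, by a test of the difference itself (edgeR quasi-likelihood test, adjusted p under 0.05). The LPS effect in WT was larger at 24 h by 1.04 on the log2 scale for C1qa (adjusted p = 1.01e-10), by 3.42 for C3 (adjusted p = 6.66e-26) and by 1.46 for Cfp (adjusted p = 8.15e-11). In KO it was larger by 0.86 for C1qa, by 3.05 for C3 and by 1.27 for Cfp, and also by 0.30 for C1qb (SE 0.10, adjusted p = 0.0165) and by 0.30 for C1qc (SE 0.11, adjusted p = 0.0225). The KO call for C1qb was lost without KO LPS 24 h library 2 (0.20), and that for C1qc without the same library (0.17) or KO Control 24 h library 3 (0.28). In WT, C1qb and C1qc had similar values, 0.25 and 0.26, with adjusted p of 0.0547 and 0.0537. The palmitate effect on C3 was larger at 24 h by 0.75 in WT and by 0.77 in KO.

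The change over Control time also differed between genotypes. From 0 to 2 h the difference was -0.60 for C3 and 0.67 for Cfp, and from 0 to 24 h it was 0.61 for Cfp. Both Cfp calls were lost without KO Control 0 h library 3, at 0.51 and 0.43. These results are described with their libraries in the report.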

How the results depend on the processing

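Every log2 fold change called for a member kept its direction under each alternative. With RLE size factors and with DESeq2, 57 of 57 stayed called. Without the filter on low counts 3 were lost and with only the compared libraries 1, all C3ar1. Leaving out 1 library lost 37 of 420.

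Counts of members called moved by over 1.5 times as follows, the cause not being tested. Without the filter there were 1 for palmitate at 2 h in WT and in KO (C3), 2 for palmitate at 24 h in WT, 1 for the genotype by LPS interaction at 2 h, 1 for Control 2 h against 0 h in WT, 5 for Control 24 h against 0 h in KO, 2 for genotype by Control time at 24 h and 5 for the LPS effect at 24 against 2 h in WT. With only the compared libraries there were 1 for palmitate at 2 h in WT, 2 for genotype by Control time at 24 h and 5 for the LPS effect in WT. In the wider list, dropping the filter gave 1 for KO against WT at palmitate 24 h and 1 for palmitate at 24 h in WT. Only the compared libraries gave 3 for KO against WT at Control 2 h and 1 at LPS 2 h. DESeq2 gave 1 at LPS 2 h and 1 for palmitate at 24 h in WT.

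Leaving out 1 library gave from 0 to 1 members for palmitate at 24 h in WT and in KO, 1 to 2 for Control 2 h against 0 h in WT, 0 to 2 in KO, 3 to 5 for Control 24 h against 0 h in KO, 1 to 2 and 0 to 2 for genotype by Control time at 2 and 24 h, 1 to 2 for LPS against palmitate at 2 h in both genotypes, and 3 to 5 for the LPS effect at 24 against 2 h in both. In the wider list it gave 0 to 3 for KO against WT at Control 0 h, 0 to 1 at Control 24 h, palmitate 2 h, palmitate 24 h and LPS 2 h, 2 to 6 for LPS at 2 h in WT and 0 to 1 for palmitate at 2 h in WT.

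No paired analysis was possible because the columns carry no replicate numbers. Depth limits Cfb and Serping1, and most of the wider list.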

Other observations

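The profile of each gene over the 14 group means (log2 CPM) was compared with that of every other tested gene whose mean level reached 1 CPM. The values are descriptions, since groups share their genotype, time and treatment. The genes most like C3 were Prdx5 (r = 0.995), Ube2l6 (0.987) and Mmp9 (0.987). Those most like Cfp were Slc11a1 (0.978), Vamp8 (0.970) and C1ra (0.969). For C1qa they were Grn (0.953), Zfand3 (0.942) and H2-D1 (0.940). C1qb and C1qc shared 2 of their 3 nearest genes, St6galnac4 (0.928 and 0.956) and Selplg (0.906 and 0.952), with Ninj1 (0.929) for C1qb and Lamp1 (0.909) for C1qc. C3ar1 had no close match, with Trappc8 at 0.817, Bpnt1 at 0.802 and Gm2223 at 0.797.

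Among the members themselves, C1qb and C1qc had r = 0.978 over the 14 group means, while C1qa had 0.690 with C1qb and 0.701 with C1qc. C1qa stood as close to Cfp (0.695) and C3 (0.668) as to its neighbours on the chromosome, and C1qb and C3 were at -0.017.

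Most other complement genes were barely read. The liver-type lectins Mbl1 and Mbl2 and vitronectin (Vtn) had 0 counts in all 42 libraries. Of the terminal components, C8g had at most 8 counts in a library, Hc at most 4, C9 at most 2, and C6, C7, C8a and C8b at most 1. Factor D (Cfd) and factor I (Cfi) had at most 1 count each.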
